A study of Mus musculus with 8 samples.

Results

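The platelet-derived growth factor (PDGF) and vascular endothelial growth factor (VEGF) genes studied here are 10 of the 55558 Ensembl gene features in the deposited count table. They were chosen by symbol, without regard to their values: the PDGF ligand genes Pdgfa, Pdgfb, Pdgfc and Pdgfd, the PDGF receptor genes Pdgfra and Pdgfrb, the VEGF ligand genes Vegfa and Vegfc, and the VEGF receptor genes Kdr and Flt1. The series compared a pair of wild-type mouse kidney cell lines, mK4 and mK3. The labels describe mK4 as metanephric mesenchyme differentiated towards epithelium and mK3 as uninduced metanephric mesenchyme, from which nephrons form in the embryo. Both were kept without treatment in DMEM with 10% fetal bovine serum, and serum itself contains growth factors. RNA depleted of ribosomal RNA was sequenced from 3 libraries of each line, with 1 ATAC-seq library, a map of open chromatin, for each. Each line is known as a single immortalised line, so a difference between them is a difference between 2 lines. Whether the 3 RNA libraries of a line are separate cultures is not stated in the labels, and p-values therefore reflect library spread that could be technical.

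PDGF ligands are secreted dimers that signal through the tyrosine kinase receptors encoded by Pdgfra and Pdgfrb. Pdgfa and Pdgfb chains are trimmed inside the cell, whereas Pdgfc and Pdgfd chains carry a CUB domain that extracellular proteases must remove before they bind a receptor. VEGF ligands signal through related receptors: Vegfa binds the products of Kdr (VEGFR2) and Flt1 (VEGFR1), and Vegfc binds those of Flt4 (VEGFR3) and, after processing, Kdr. In the developing kidney, PDGF signals from epithelium and endothelium recruit stromal and mesangial cells that carry the receptors, and Vegfa from nephron epithelium draws endothelium into the glomerulus.

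The RNA libraries held 137559391 to 152952351 counts each, and log2 levels of tested genes had a correlation of 0.9437 to 0.9577 within a line and of at most 0.7839 between the lines. The labels were in part borne out by markers. Among 13 listed kidney epithelial genes, Cdh6, which encodes a cadherin of early nephron epithelium, averaged 1668 ± 50.5 CPM in mK4 and was at 0 in mK3, and Cdh16, the kidney cadherin gene, averaged 84.2 ± 4.41 CPM in mK4 and was at 0 in mK3 (SD, n = 3). CPM are counts scaled to a common library size of 1e6. Epcam, Krt18, Cldn3 and Cldn4 of that list were at 0 in mK4, and Cdh1 averaged only 0.275 ± 0.239 CPM there. In mK3, the progenitor genes Pax2 and Sall1 were at 0, Cited1 averaged 0.0139 ± 0.0241 CPM and Six2 0.338 ± 0.199 CPM. Other genes of the progenitor list were read there: Eya1 averaged 187 ± 31.1 CPM in mK4 and 10.1 ± 0.818 CPM in mK3, Osr1 2.25 ± 0.235 CPM in mK4 and 11.2 ± 0.779 CPM in mK3, and Gdnf 7.68 ± 3.02 CPM in mK4 and 14.0 ± 0.796 CPM in mK3.

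The comparison of mK4 with mK3 asked how ligand and receptor RNA differed between the lines. Pdgfa and Pdgfb were higher in mK4, and Pdgfc, Pdgfd, Pdgfra, Pdgfrb, Vegfc and Kdr were lower. Pdgfd and Kdr had no count in any mK4 library. The remaining genes, Vegfa and Flt1, did not pass the test. All 10 genes passed the filter on low counts, Pdgfd and Kdr only through their mK3 counts. Called at an adjusted p under 0.05 in edgeR's quasi-likelihood test with Benjamini-Hochberg adjustment over 20405 genes, 2 of the 10 were higher in mK4, where 20.8% of all tested genes were, and 6 were lower, where 19.5% of all tested genes were. In either direction 8 of the 10 were called, beside 40.3% of all tested genes. The libraries of the lines did not overlap for 2 of the 10 on the higher side, beside 28.8% of all tested genes, and for 7 on the lower side, beside 27.2%. The median log2 fold change of the 10 was -1.66, beside 0.02 over all tested genes. In RNA from whole cultures, fewer cells expressing a gene and less RNA of it per cell cannot be told apart.

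**Figure D1:**
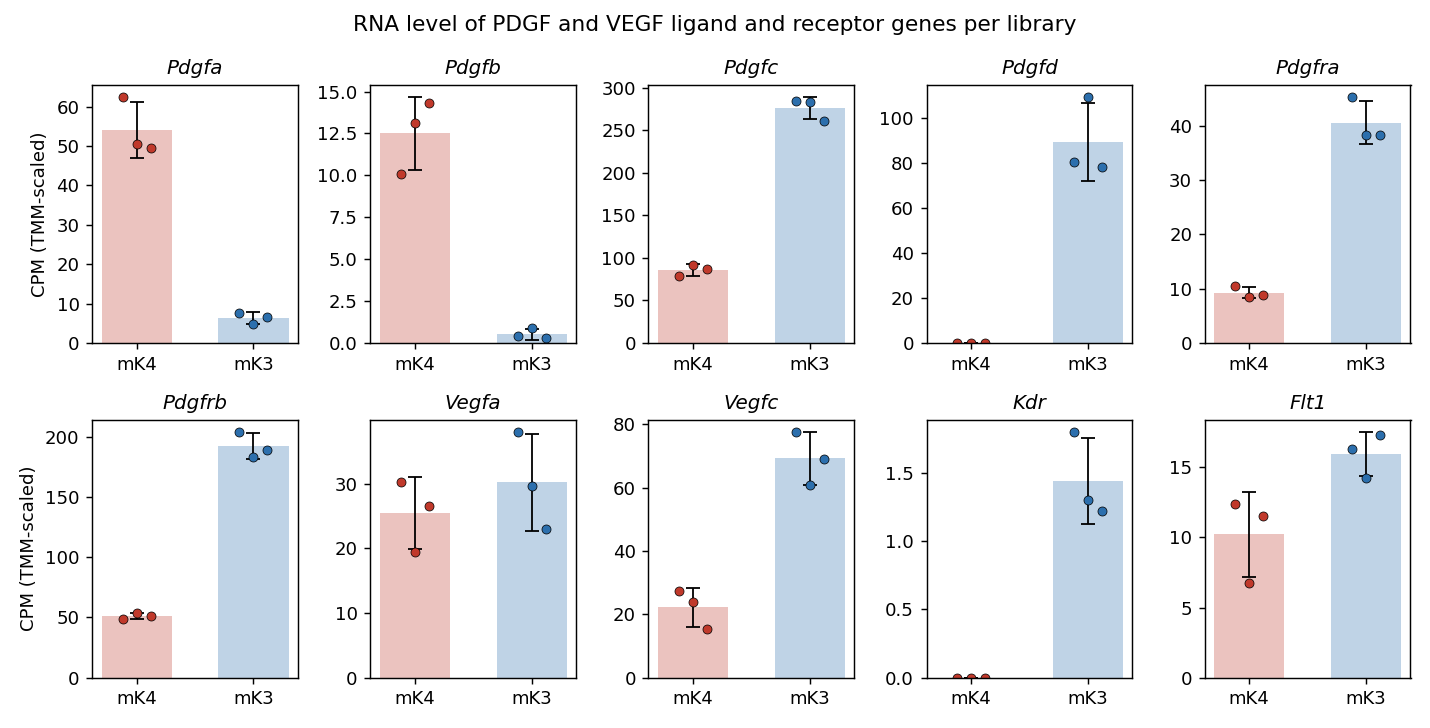
RNA level of each of the 10 genes in CPM (TMM-scaled), with mK4 left and mK3 right in each panel. Points are the 3 libraries of a line, bars their mean and error bars the SD, and the vertical axis starts at 0 and differs between panels. The points of the lines overlap for Vegfa only, and the mK4 points of Pdgfd and Kdr lie at 0.

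Pdgfa (ENSMUSG00000025856, chromosome 5, 138976014 to 139000792 in GRCm38, the mm10 build) encodes the chain that activates the alpha receptor. It had 62.4, 50.4 and 49.6 CPM in the mK4 libraries, against 7.68, 4.74 and 6.64 CPM in the mK3 libraries. The lowest mK4 library lay well above the highest mK3 library. The means were 54.1 ± 7.14 CPM in mK4 and 6.35 ± 1.49 CPM in mK3 (SD, n = 3 each), a log2 fold change of 3.09 (SE 0.21) with an adjusted p of 1.44e-04. RefSeq lists 2 starts for Pdgfa, and both had an ATAC-seq peak over them in mK4, whereas in mK3 the upstream start alone had one.

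Pdgfb (ENSMUSG00000000489, chromosome 15, 79995865 to 80024614) encodes the chain that activates both PDGF receptors. Its level was 10.1, 13.1 and 14.3 CPM in mK4 and 0.411, 0.899 and 0.274 CPM in mK3, where the counts were 59, 119 and 34. Every mK4 library lay above every mK3 library. Its log2 fold change of 4.56 (SE 0.50) was the largest rise of the 10 genes, with an adjusted p of 8.25e-04. The fold rests on the low mK3 counts, and the log2 value ran between 4.25 and 5.19 when single libraries were left out.

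Pdgfc (ENSMUSG00000028019, chromosome 3, 81036416 to 81214040) encodes a ligand of the alpha receptor that is inactive until its CUB domain is cut off. It had 78.2, 92.1 and 86.9 CPM in mK4, against 284, 283 and 261 CPM in mK3. Every mK4 library lay below every mK3 library, and the spread within a line was small beside the difference. The log2 fold change was -1.69 (SE 0.08), with an adjusted p of 4.46e-05.

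Pdgfd (ENSMUSG00000032006, chromosome 9, 6168363 to 6534284) encodes the other CUB-domain ligand, which acts on the beta receptor. It was at 0 counts in all 3 mK4 libraries, against 11548, 14383 and 9706 counts in mK3, or 80.4, 109 and 78.2 CPM. With 3 counts a library taken as the floor, which is no more than 0.022 CPM in mK4, Pdgfd was at least 4052-fold lower in mK4, with an adjusted p of 6.68e-05. Only 2.05% of tested genes were called lower with no count in any mK4 library. The bound covers counting error only. Some other genes in the table are at 0 in single libraries of a line that otherwise reads them: the endothelial gene Pecam1 had 102, 0 and 62 counts in mK4 and 152, 0 and 238 in mK3. Ddi1, a protein-coding gene that lies within the span of Pdgfd, was likewise at 0 CPM in mK4 and at 1.27 CPM in mK3.

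The ligand genes were thus not in step with each other. The log2 ratio of Pdgfa to Pdgfc counts within a library was -0.33, -0.87 and -0.81 in mK4 and -5.21, -5.90 and -5.30 in mK3. This ratio, in which library size cancels, was higher by 4.80 in mK4 than in mK3, without overlap (two-sided exact permutation test, p = 0.1, the smallest that 3 against 3 libraries can give; adjusted p = 0.15 over 3 ratios). Transcript lengths were not used, so the ratio compares the lines and not the levels of the 2 genes.

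The beta receptor gene Pdgfrb (ENSMUSG00000024620, chromosome 18, 61045127 to 61085067), expressed in stroma, pericytes and mesangium, had 48.4, 53.6 and 51.5 CPM in mK4. In mK3 it had 204, 183 and 189 CPM, far above the mK4 range. The log2 fold change was -1.91 (SE 0.08), with an adjusted p of 2.44e-05. The alpha receptor gene Pdgfra (ENSMUSG00000029231, chromosome 5, 75151322 to 75198206), a marker of interstitial fibroblasts, had 10.5, 8.49 and 8.83 CPM in mK4, against 45.3, 38.3 and 38.3 CPM in mK3. It too fell without overlap, by a log2 value of -2.13 (SE 0.13) with an adjusted p of 9.31e-05. Both receptor genes were still read in every mK4 library, with at least 1292 counts for Pdgfra and 6608 for Pdgfrb.

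The receptor genes fell by similar amounts. The log2 ratio of Pdgfra to Pdgfrb counts was -2.21, -2.66 and -2.55 in mK4 and -2.17, -2.25 and -2.31 in mK3. These values overlap between the lines, and their means differed by -0.23 (two-sided exact permutation test, p = 0.3; adjusted p = 0.3 over 3 ratios). A p above the threshold does not show that the ratio was the same.

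Most tested markers of mesenchyme, and some of mural cells, were lower in mK4, as the receptor genes were. The summed level of 11 mesenchyme and fibroblast genes was 41.8 to 46.1 CPM in mK4 libraries and 3535 to 4029 CPM in mK3 libraries. In this list 9 of 10 tested genes were called lower in mK4, beside 19.5% of all tested genes. Twist1 and Thy1 of that list were at 0 in mK4, and Thy1 in mK3. The sum of 14 pericyte, mesangial and smooth muscle genes was 20.1 to 27.6 CPM in mK4 and 687 to 727 CPM in mK3, with 6 of 10 tested genes lower. Most of the mK3 sum came from Acta2 alone, at 491, 577 and 558 CPM in the mK3 libraries. Tagln and Notch3 came next, with mK3 means of 64.7 and 59.8 CPM. The sum therefore mainly follows these genes and not the list as a whole. The other 4 tested genes, Myh11, Des, Itga8 and Gata3, were not called. Of the 14 genes, Rgs5, Kcnj8, Abcc9, Tagln and Ren1 were at 0 in mK4, and Kcnj8, Abcc9 and Ren1 in mK3. Their part in the receptor result was not tested.

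Vegfa (ENSMUSG00000023951, chromosome 17, 46016993 to 46032377), the main angiogenic factor gene and a target of hypoxia signalling, had 30.3, 19.4 and 26.6 CPM in mK4, against 38.0, 29.7 and 23.0 CPM in mK3. The libraries of the lines overlapped, and the widest spread was within mK3. The log2 fold change was -0.25 (SE 0.24) with an adjusted p of 0.464, so no difference was detected at this spread.

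Vegfc (ENSMUSG00000031520, chromosome 8, 54077532 to 54186454), which encodes the lymphatic growth factor, had 27.4, 24.0 and 15.3 CPM in mK4 and 77.6, 60.9 and 69.2 CPM in mK3. All mK4 libraries lay below all mK3 libraries. The log2 fold change was -1.64 (SE 0.23), with an adjusted p of 0.00233. Within libraries, the log2 ratio of Vegfa to Vegfc counts averaged 0.21 ± 0.56 in mK4 and -1.22 ± 0.32 in mK3 (SD, n = 3), a difference of 1.43 without overlap (two-sided exact permutation test, p = 0.1, the smallest possible; adjusted p = 0.15).

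Kdr (ENSMUSG00000062960, chromosome 5, 75932827 to 75979072), the main signalling receptor gene of endothelium, was low in mK3 and at 0 in mK4. It had no count in the 3 mK4 libraries and 258, 172 and 152 counts in mK3, or 1.80, 1.30 and 1.22 CPM. Against the floor it was at least 65.5-fold lower in mK4, with an adjusted p of 7.89e-04.

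Flt1 (ENSMUSG00000029648, chromosome 5, 147561604 to 147726438), whose product binds Vegfa tightly and also exists as a soluble decoy, had 12.4, 6.78 and 11.5 CPM in mK4. Its mK3 libraries had 16.3, 14.2 and 17.3 CPM, all above the mK4 values, as was the case for 27.2% of all tested genes. The log2 fold change of -0.64 (SE 0.24) did not pass the test, with an adjusted p of 0.083. It passed with DESeq2's Wald test in place of edgeR (adjusted p = 0.0311, range over 14 alternatives 0.0311 to 0.189).

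Endothelial markers were sparse in both lines. The sum of 15 listed genes was 19.1 to 23.3 CPM in mK4 and 6.64 to 8.70 CPM in mK3, so it ran against the direction of Kdr. Tek, the angiopoietin receptor gene, was at 0 in mK4 and 1.78 ± 0.392 CPM in mK3, and Cdh5, the endothelial cadherin gene, was at 7.35 ± 0.402 CPM in mK4 and at 0 in mK3. At 0 in mK4 were also Tie1, Cldn5, Sox17, Sox18, Robo4 and Vwf, and at 0 in mK3 Emcn, Cldn5, Erg, Sox17 and Sox18. Podocyte markers summed to 72.1 to 94.3 CPM in mK4 and 20.1 to 31.0 CPM in mK3, and leukocyte and platelet markers to 0.821 to 1.71 CPM in mK4 and 2.59 to 2.86 CPM in mK3. The part of these markers in the Kdr and Flt1 results was not tested. Neither line had the joint pattern that defines endothelium.

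**Figure D2:**
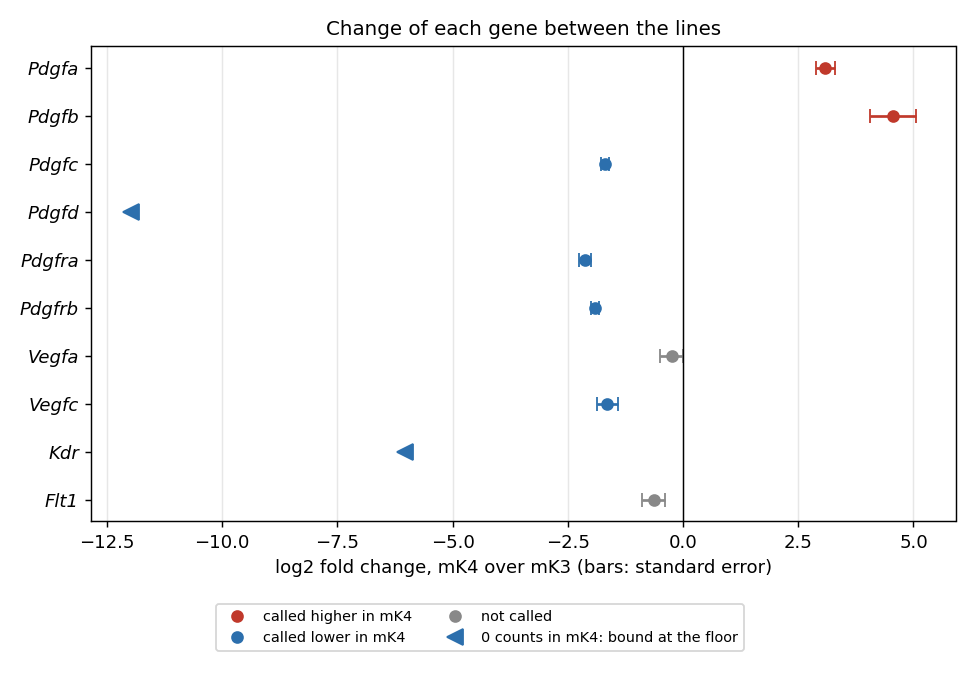
Log2 fold change of mK4 over mK3 for each gene on the horizontal axis, with standard errors as bars. Pdgfa and Pdgfb lie right of 0, Vegfa and Flt1 were not called, and the triangles of Pdgfd and Kdr mark the smallest fall that a floor of 3 counts per library allows.

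ATAC-seq showed which of these genes had open chromatin at their start. The deposited lists held 34756 peaks for mK4 and 22516 for mK3, each from 1 library, so line differences have no replicate check, and a longer list has more chances to hold a peak. Fold enrichment over background is the authors' value for a peak within its own list. RefSeq starts in GRCm38.p6 were found for 8 of the 10 genes, all but Pdgfb and Pdgfrb. Of these 8, Pdgfa, Vegfa, Vegfc and Flt1 had a peak within 1 kb of a start in mK4 (4 of 8), where 69.8% of 11904 tested genes with a listed start did. In mK3 these were Pdgfa, Pdgfc, Vegfc and Flt1 (4 of 8), where 63.6% did. With only peaks of a -log10 q of at least 10, the count was 3 in mK4 and 2 in mK3. Pdgfra, Pdgfd and Kdr had no start peak in either line.

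**Figure D3:**
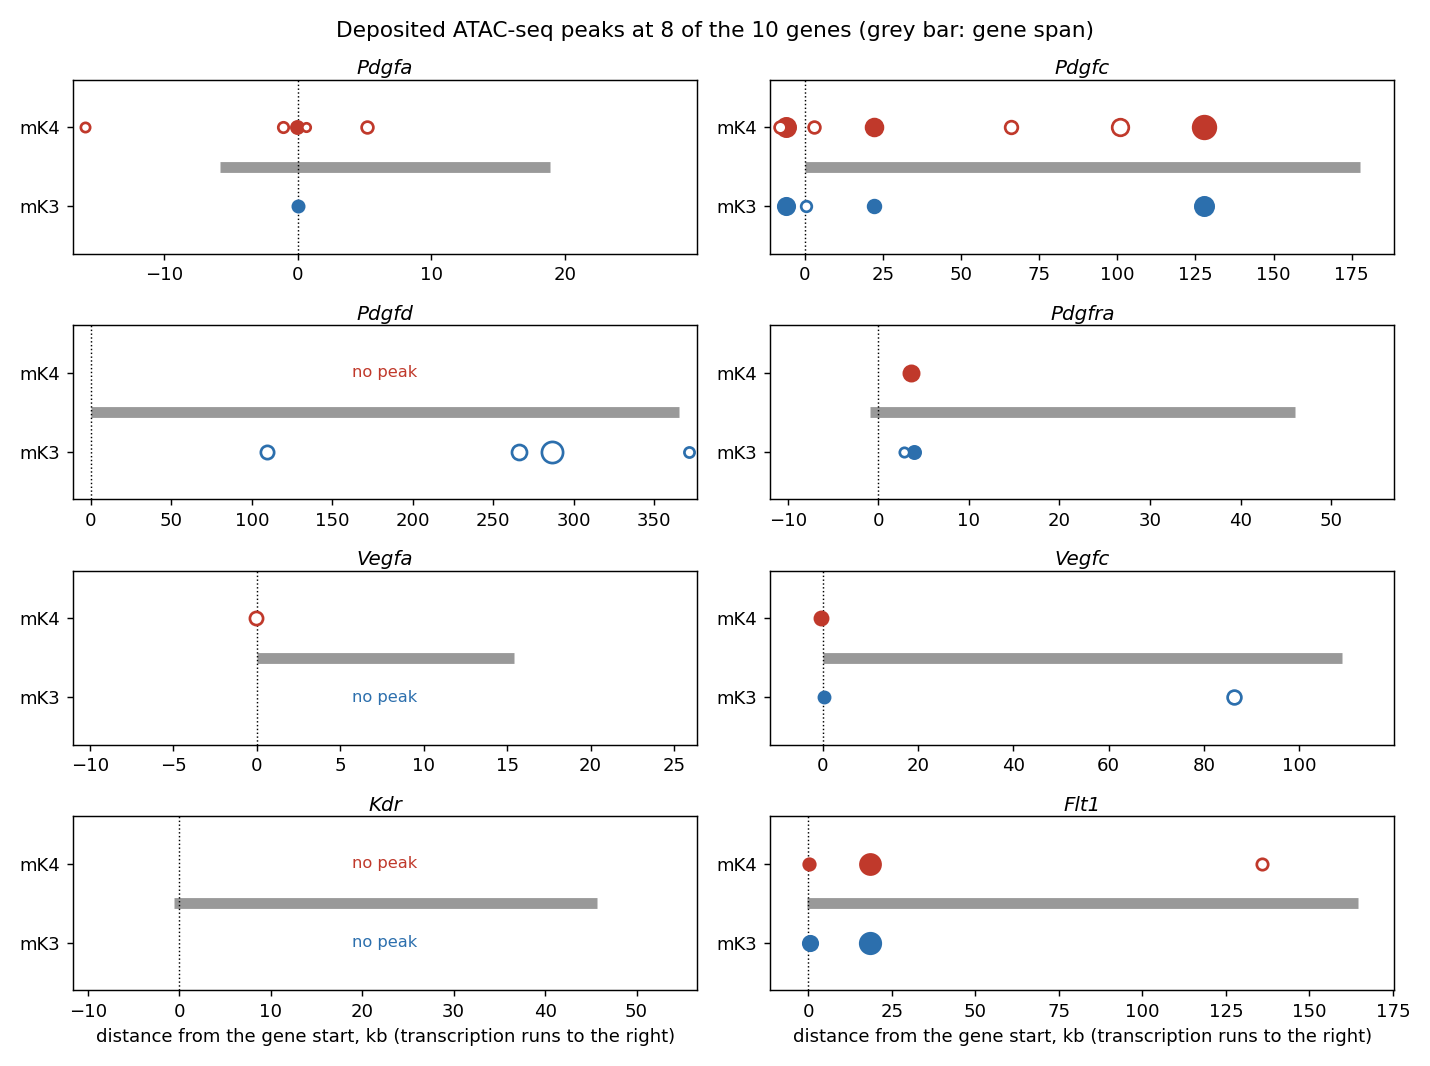
Summits of deposited ATAC-seq peaks in mK4 (upper row of each panel) and mK3 (lower row) against the distance in kb from the gene start (the most upstream one where several are listed), for genes with a RefSeq start and 10 kb on both sides. Circle size grows with fold enrichment, filled circles overlap a peak of the other line, and the grey bar is the gene. Pdgfd has 4 mK3 peaks and no mK4 peak, and Kdr has none in either line.

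Pdgfd had listed peaks in mK3 only. In mK3 it had 4 peaks in the gene and the 10 kb around it, with summits 109.2, 265.8, 286.3 and 371.6 kb downstream of the start, the last of them past the end of the gene. The strongest, chr9:6454563-6455137, had a fold enrichment of 8.11 and a -log10 q of 41.0. In mK4 none was listed. Over 16637 genes, 0.0721% had at least 4 mK3 peaks and no mK4 peak in such a window, and 2.85% had at least 1 mK3 peak and no mK4 peak. The cutoff of 4 is the count of Pdgfd itself. A long gene such as Pdgfd has a wider window, and the genes were not matched for length. The start of Pdgfd itself had no peak in mK3, the line that reads the gene.

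Pdgfa had 5 peaks in mK4 and 1 in mK3. The strongest mK4 peak, chr5:138994652-138995159, had a fold enrichment of 3.97 and its summit 28 bp before the upstream start. The mK3 peak, chr5:138994747-138995072, overlapped it, with a fold enrichment of 3.54 and its summit 23 bp past that start. The other mK4 peaks had no partner: 1 covered the downstream start, and 1 had its summit 4483 bp past it, inside the gene. The remaining 2 lay before the upstream start, with summits at 1092 bp, still within the gene span given above, and at 15971 bp, outside it.

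Pdgfc had the same strongest peak in both lines. The strongest in each line lay 127.9 kb inside the gene, with a fold enrichment of 8.79 in mK4 (chr3:81163916-81164566) and 6.79 in mK3 (chr3:81163940-81164496). Of its 4 mK3 peaks 3 had an mK4 partner, and 3 of its 7 mK4 peaks had an mK3 partner. The exception in mK3 was the peak nearest the start, chr3:81036690-81037018, with its summit 452 bp downstream of the start and a fold enrichment of 3.23. In mK4 the strongest peak without a partner lay 100.8 kb inside the gene, with a fold enrichment of 5.99 and a -log10 q of 14.3.

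Vegfa had a peak over its start in mK4, chr17:46032319-46032571, with a fold enrichment of 4.41, a -log10 q of 11.5 and its summit 62 bp before the start. No peak was listed in or near the gene in mK3, although its RNA overlapped between the lines. A start peak in mK4 and none in mK3 was found for 10.6% of genes, and the reverse, as for Pdgfc, for 4.39%. Vegfc had a start peak in both lines, chr8:54076990-54077977 in mK4 and chr8:54076988-54078020 in mK3, with fold enrichments of 4.42 and 3.49. Its strongest mK3 peak, 86.2 kb inside the gene with a fold enrichment of 4.68, had no mK4 partner.

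Flt1 had its strongest peak 18.3 kb inside the gene in both lines, with a fold enrichment of 7.60 in mK4 and 7.80 in mK3. It also had start peaks of 3.66 in mK4 and 4.99 in mK3, and these 4 peaks had partners. A further mK4 peak, 135.9 kb inside the gene with a fold enrichment of 3.59, had none. Pdgfra had a shared peak within the gene, chr5:75155752-75156528 in mK4 and chr5:75155764-75156410 in mK3, with a -log10 q of 16.3 in mK4 and 10.2 in mK3 and summits 3606 and 3977 bp downstream of the start. Its other mK3 peak, closer to the start, had a fold enrichment of 2.67.

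For Pdgfb and Pdgfrb the distance was taken to the nearer end of the gene. Pdgfb had a shared peak over an end of the gene, with a fold enrichment of 6.01 in mK4 and 3.87 in mK3, the strongest of 3 in each line. Pdgfrb had a shared peak over an end too, with a fold enrichment of 4.41 in mK4 and 4.47 in mK3. Its strongest mK4 peak lay inside the gene, 12520 bp from its other end, with a fold enrichment of 7.20 and no mK3 partner, although its RNA was lower in mK4. Over all 10 genes, 10 of 25 mK4 peaks and 10 of 20 mK3 peaks had a partner.

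The promoters of Pdgfc, Pdgfra and Vegfc, whose RNA also differed between the lines, are not shown. Those of 4 other genes are shown, where the lines differ in RNA or in the peak there. Each is the 250 bases before a RefSeq start in GRCm38.p6, 5′ to 3′ on the strand of the gene, with matches to the GC box (GGGCGG, either strand) and the TATA box (TATAAA, either strand) in capitals. The first 2 are overlapped by mK4 peaks at their starts, that of Pdgfa also by its mK3 peak, and the others had no start peak in either line.
Pdgfa, upstream start, chr5:138994945-138995194, minus strand: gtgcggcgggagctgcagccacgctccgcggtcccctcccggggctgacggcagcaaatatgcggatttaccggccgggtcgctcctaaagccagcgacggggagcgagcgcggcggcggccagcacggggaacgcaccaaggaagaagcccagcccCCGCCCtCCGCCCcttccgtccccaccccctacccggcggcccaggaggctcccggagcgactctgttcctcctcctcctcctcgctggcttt
Vegfa, chr17:46032378-46032627, minus strand: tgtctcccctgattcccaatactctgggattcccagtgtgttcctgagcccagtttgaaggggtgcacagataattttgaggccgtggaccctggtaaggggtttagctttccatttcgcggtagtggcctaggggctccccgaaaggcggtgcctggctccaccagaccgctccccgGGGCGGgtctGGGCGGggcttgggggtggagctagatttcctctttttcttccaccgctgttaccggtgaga
Pdgfd, chr9:6168236-6168485, plus strand: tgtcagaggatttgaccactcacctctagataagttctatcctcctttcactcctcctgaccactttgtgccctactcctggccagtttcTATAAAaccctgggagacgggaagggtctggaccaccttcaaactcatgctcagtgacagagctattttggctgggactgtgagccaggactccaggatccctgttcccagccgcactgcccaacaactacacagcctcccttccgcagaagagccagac
Kdr, chr5:75978456-75978705, minus strand: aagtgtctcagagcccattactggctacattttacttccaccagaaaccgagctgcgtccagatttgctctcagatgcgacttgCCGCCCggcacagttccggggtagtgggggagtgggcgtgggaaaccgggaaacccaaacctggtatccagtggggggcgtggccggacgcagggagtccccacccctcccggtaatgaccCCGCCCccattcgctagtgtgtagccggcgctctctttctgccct

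The Pdgfa, Vegfa and Kdr stretches held 2 GC boxes each, and that of Pdgfd held none. Of 32851 such stretches, taken from all chromosomes but chromosome 18, 32.7% held at least 1 GC box. The Pdgfd stretch held a TATA box that begins at position -160, counted from the start, and 12.4% of the 32851 held a TATA box. Its C and G content was 53.6%, beside 72.4% for Pdgfa, 59.2% for Vegfa and 61.6% for Kdr. The AP-1 site (TGANTCA), the HIF core (ACGTG) and the STAT site (TTCNNNGAA) had no match on either strand in the 4 stretches. Of the 32851, 6.75%, 16.6% and 7.02% held these motifs, in that order. RefSeq lists 2 starts for Vegfa as well, and the stretch before the downstream one, not shown, held an ACGTG match at position -211 and a GC box at position -158. These are letter matches in this window only.

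Other genes of the pathways were taken from 7 lists chosen with earlier results of these data known. Of 6 further PDGF and VEGF family genes, 5 were tested. None was called higher, beside 20.8% of all tested genes, and 1 was called lower, beside 19.5%. The co-receptor gene Nrp1 averaged 332 ± 9.09 CPM in mK4 and 402 ± 3.07 CPM in mK3, with a log2 fold change of -0.28 (SE 0.05) and an adjusted p of 0.00604. The call was lost without TMM scaling (adjusted p = 0.0928, range over 14 alternatives 1.75e-07 to 0.0928). Nrp2 averaged 408 ± 15.1 CPM in mK4 and 414 ± 27.5 CPM in mK3, and Vegfd, which encodes another lymphatic factor, averaged 203 ± 11.9 CPM in mK4 and 189 ± 19.4 CPM in mK3. Vegfb averaged 4.14 ± 1.65 CPM in mK4 and 3.42 ± 0.794 CPM in mK3, and Pgf 0.635 ± 0.566 CPM in mK4 and 0.224 ± 0.164 CPM in mK3. Flt4, the main receptor gene for Vegfc and Vegfd, was too low to be tested, at 0.185 ± 0.151 CPM in mK4 and 0 in mK3.

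Genes that process PDGF and VEGF ligands or hold them in the matrix were lower in 9 of 12 tested cases, where 19.5% of all tested genes were, and higher in 2, where 20.8% were, with a median log2 fold change of -0.99. Plau, which encodes urokinase, averaged 0.0131 ± 0.0228 CPM in mK4 and 44.3 ± 3.70 CPM in mK3. Plat, the tissue plasminogen activator gene, whose product can cut the CUB domain off the Pdgfc protein, averaged 47.6 ± 2.02 CPM in mK4 and 66.7 ± 2.49 CPM in mK3. Adamts1 (log2 fold change -2.88, SE 0.08) and Thbs1 (-2.47, SE 0.08), which encode a protease and a matrix protein that bind VEGF, also fell. Ccbe1, whose product helps activate the Vegfc protein, averaged 5.22 ± 1.34 CPM in mK4 and 14.9 ± 2.41 CPM in mK3 (adjusted p = 0.00305). The protease genes Adamts3, Plg, Pcsk5 and St14 of that list were at 0 in both lines. Furin, a protease gene that acts on several of these ligands inside the cell, rose by a log2 value of 0.78 (SE 0.18), and A2m averaged 0.274 ± 0.12 CPM in mK4 and was at 0 in mK3.

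Among 30 genes that relay the signal from the receptors, 4 were called higher, beside 20.8% of all tested genes, and 8 lower, beside 19.5%. Sos2 (log2 fold change 1.24, SE 0.12) and the adaptor gene Nck2 (1.84, SE 0.21) rose, as did Stat5a (0.64, SE 0.17), whose call was lost in 4 of 14 alternatives. Akt1 (-1.30, SE 0.09) and the adaptor gene Grb10 (-0.84, SE 0.05) fell. Of 15 tested genes that attenuate the receptors, 4 were higher and 3 lower, near the shares over all tested genes of 20.8% and 19.5%. The receptor phosphatase gene Ptprj averaged 567 ± 47.6 CPM in mK4 and 114 ± 6.14 CPM in mK3, the ERK phosphatase gene Dusp6 34.3 ± 1.78 CPM in mK4 and 4.81 ± 0.903 CPM in mK3, and Socs3 18.8 ± 1.03 CPM in mK4 and 6.95 ± 0.55 CPM in mK3. Spry2 (-0.79, SE 0.16), Ptpn12 (-0.38, SE 0.09) and Ptpn2 (-0.59, SE 0.16) fell, the calls of Ptpn12 and Ptpn2 being lost in 3 and 5 of 14 alternatives.

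**Figure D4:**
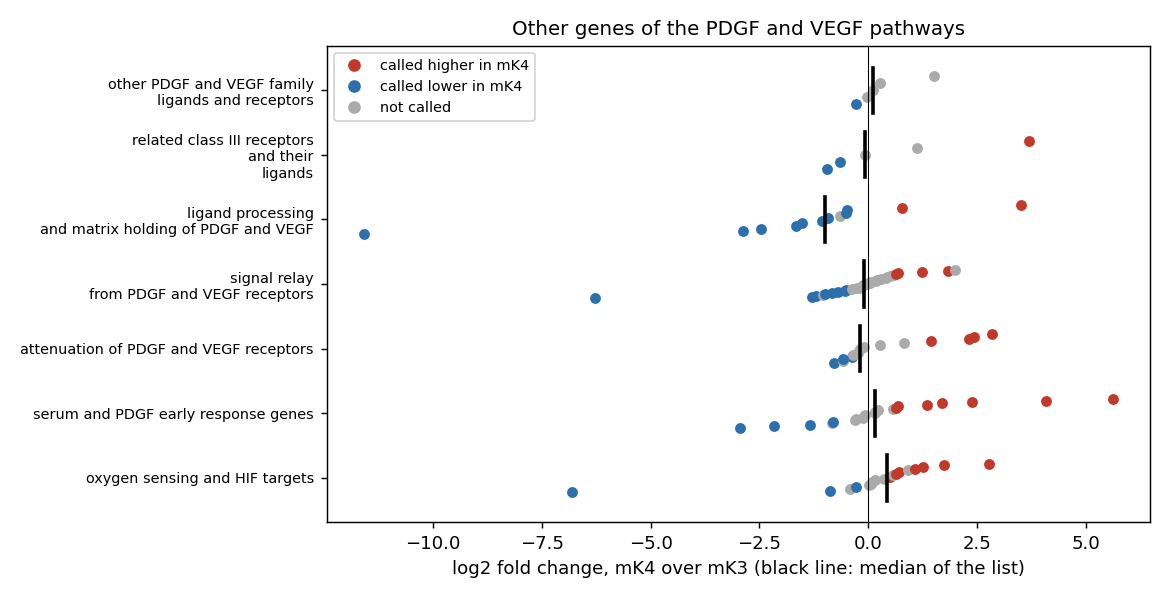
Log2 fold change of mK4 over mK3 for every tested gene of the 7 lists, with genes at 0 in every library of a line placed at their bound. Each point is a gene, coloured by its call, and black lines are list medians, from -0.99 for ligand processing to 0.42 for oxygen sensing. Most lists hold called genes on both sides of 0.

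Of 21 serum and PDGF early response genes, 7 were called higher, beside 20.8% of all tested genes, and 4 lower, beside 19.5%, with a median of 0.15. Fosb (log2 fold change 5.62, SE 0.33), Fos (4.08, SE 0.25) and Junb (1.35, SE 0.08) rose, while Ccl2 (-2.94, SE 0.13), Srf (-1.35, SE 0.20) and Atf3 (-2.16, SE 0.34) fell. Genes of oxygen sensing and HIF targets, the class to which Vegfa belongs, included 7 called higher and 3 called lower among 18 tested, beside 20.8% and 19.5% of all tested genes, with a median of 0.42. Egln3 averaged 223 ± 9.32 CPM in mK4 and 32.5 ± 1.93 CPM in mK3, Bnip3 1071 ± 52.4 CPM in mK4 and 320.4 ± 28.2 CPM in mK3, and Pdk1 143 ± 16.8 CPM in mK4 and 68.4 ± 5.84 CPM in mK3. Adm, the adrenomedullin gene, averaged 0.035 ± 0.0607 CPM in mK4 and 4.09 ± 0.228 CPM in mK3, and P4ha1 (-0.88, SE 0.05) and Ndrg1 (-0.29, SE 0.08) fell, the call of Ndrg1 being lost in 7 of 14 alternatives. Vegfa itself, at -0.25 (SE 0.24), did not pass the test.

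The genes whose pattern over the 6 libraries was most like those of the largest rise and the largest fall were found by the distance of centred log2 CPM. For Pdgfb they were Rassf4, Pde1a, Ntrk3, Slc17a7 and Pamr1, at distances of 0.337 to 0.639. For Pdgfd they were Eda, Lipo3, Enpp1, Fbn2 and Fbxl7, at 0.403 to 0.618, all at 0 in mK4 and at 78.7 to 104 CPM in mK3. Among the genes most like Pdgfb, Slc17a7 was low, with 50, 75 and 95 counts in mK4 and 0, 5 and 0 in mK3. With 2 lines, this likeness mainly ranks genes by the size of the line difference.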

How the data were processed

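The authors deposited raw counts of reads for each feature in 6 RNA libraries, and a peak list from 1 ATAC-seq library per line with a fold enrichment (a ratio) and a -log10 q per peak, as their peak caller wrote them. Per the submitters' processing notes, the tools included STAR 2.7.10a, HTSeq 2.0.2 and MACS3 with the build mm10. The labels' protocols describe strand-specific libraries, and the counting settings, strand included, are not stated there. Counts of 55558 gene features were fitted with edgeR 4.0.16 in R 4.3.3 (filterByExpr, TMM, robust quasi-likelihood test), Benjamini-Hochberg adjustment ran over 20405 genes, and DESeq2 1.42.0 was an alternative. CPM used TMM-scaled library sizes. SciPy 1.17.1 gave exact permutation tests. Depth was 137559391 to 152952351 counts per library. Peaks within 1 kb of a RefSeq start, or within a gene and 10 kb around it, were assigned to it, and peaks sharing 1 bp were partners. All 10 genes, up to 3 called genes per list and direction, 6 further family genes and the 5 genes most like 2 members are named, except 1 list gene that is not reported here. Genes and lists were chosen with earlier results of these data known, and a few other list genes, such as Plat and Ccbe1, were chosen after their values were seen.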

Additional observations from a re-analysis of the deposited data

How the results depend on the processing

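Under 14 alternatives (scaling, DESeq2, filters, features fitted, replicate block, each library left out), no value of the 10 genes changed direction, and Flt1, called with DESeq2 only, was the sole change of a call. Requiring 1 CPM in all 6 libraries left Pdgfb, Pdgfd and Kdr untested, so 1 of the 10 was then called higher and 4 lower. Over all genes, 3159 to 4875 were called higher and 3013 to 4826 lower. Without TMM scaling the median log2 fold change of all genes was 0.13, beside 0.02 with it. Deviations from the line mean in same-numbered libraries of the lines correlated at -0.02, 0.02 and 0.01 over all tested genes. Such a correlation over the whole table cannot show whether single genes are paired, and Pecam1 was at 0 in replicate 2 of both lines. With the replicate block 3281 genes were called higher and 3129 lower, and 2 and 6 of the 10. The block ended the calls of A2m (adjusted p = 0.0809, range over its 13 alternatives 5.91e-05 to 0.0809), Ptpn2 (0.0586, range 0.00106 to 0.0706) and Ndrg1 (0.0688, range 0.00522 to 0.194). Among the other named genes, directions changed for Nrp2 (0.09 without TMM scaling, 0.01 without mK4 replicate 3, 0.03 without mK3 replicate 3, range -0.06 to 0.03 with single libraries left out) and for Vegfb (-0.10 without mK4 replicate 3, range -0.10 to 0.48), neither of them called. Within 5 kb of a start, 6 of the 8 genes had a peak in mK4 and 5 in mK3. With only peaks of a -log10 q of at least 10, 3 of the 8 genes had a start peak in mK4 and 2 in mK3. At that cutoff 6 mK4 and 6 mK3 peaks had a partner. With 50 kb around each gene, 17 mK4 and 17 mK3 peaks had a partner. Apart from the untested genes, the cause of these changes was not tested. Counts were low for Kdr in mK3 (152 to 258 per library) and for Pdgfb in mK3 (34 to 119).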

Other observations

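Relatives of the PDGF and VEGF receptor genes lie beside them in the genome, and their RNA did not follow a shared pattern. On chromosome 5, Kit, a receptor gene of the same class, lies between Pdgfra and Kdr, and it had no count in any of the 6 libraries, where Pdgfra was read in all 6 and Kdr in mK3 only. No ATAC-seq peak was listed in either line in the 735 kb between Pdgfra and Kdr, leaving out 10 kb beside each gene. Flt3, 161 kb from Flt1, was also at 0 in all 6 libraries, with 3 mK4 peaks and 2 mK3 peaks listed between them. Csf1r, 20.5 kb from Pdgfrb, averaged 1.12 ± 0.109 CPM in mK4 and 1.18 ± 0.384 CPM in mK3 (SD, n = 3; adjusted p = 0.877 in edgeR's test), with Pdgfrb lower in mK4.

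Ligand genes of these neighbouring receptors were read in both lines. Il34, which encodes a ligand of the Csf1r product, averaged 37.3 ± 17.8 CPM in mK4 and 2.87 ± 0.481 CPM in mK3 (log2 fold change 3.70, SE 0.38). Csf1, the other ligand gene, fell by a log2 value of -0.64 (SE 0.11), and Kitl, the gene for the ligand of the Kit product, averaged 153 ± 10.5 CPM in mK4 and 297 ± 8.22 CPM in mK3 (adjusted p = 1.68e-04). These comparisons of neighbours were chosen after the values were seen.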
